A study of Mus musculus with 28 samples.

Results

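The ETS transcription factors other than PU.1 described here are 10 genes, Ets1, Ets2, Etv6, Fli1, Elf1, Elf4, Elk3, Spib, Gabpa and Erg, of the 55450 genes in the RNA-seq table. They were chosen by name, all 10 were found, and all 10 were among the 16415 genes that were tested, those whose TPM (transcripts scaled to length and library) averaged 0.1 or more. The fragments in contact with the Ets1 promoter fragment in Promoter Capture Hi-C (PCHi-C) were added, 31 in all, from lists that hold 18175 promoter fragments.

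ETS factors share a DNA-binding domain that reads a GGAA core, and differ in the flanking bases they favour, in the partners they bind and in whether they activate or repress. PU.1, encoded by Spi1, is the member best known for directing macrophage development, while Spib, Ets1, Fli1, Erg, Elf1 and Gabpa have known roles in lymphoid or early blood cells. Because many cell types make several members at once and the members recognise related sites, the set of ETS factors a cell makes is of interest during a change of lineage.

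The cells were C10, a mouse Pre-B line that carries C/EBPαER, a rat C/EBPα fused to the hormone-binding part of the estrogen receptor, in every group including the uninduced one. Cells at 0h were not induced, and cells after 1h, 12h and 48h had received 100 nM β-estradiol with 10 nM IL-3 and CSF-1, so the hormone and the cytokines cannot be told apart. The design has 1 line and no line without the fusion, and it asks how genes change on the way from Pre-B cell to macrophage. Each time point had 3 biological replicates of RNA-seq and 2 of PCHi-C, the latter merged into 1 list per time. The labels do not say how the replicates were separated, so p-values measure only the spread between these libraries.

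The cells followed their labels. The summed level of 5 Pre-B markers went from 193 to 203 at 0h to between 20.3 and 26.2 after 48h, and that of 5 macrophage markers from between 2.51 and 3.26 to between 89.0 and 106.5. Of the macrophage markers, Itgam, Csf1r, Fcgr1 and Cd68 were each higher after 48h. Adgre1 was too low to be tested, at 0, 0 and 0.386 after 48h. Cd3e, Cd3g and Cd4 of T cells, Kdr and Tie1 of endothelium, Pf4, Gata1 and Hbb-bt of megakaryocytes and red cells, and Mpo of neutrophil precursors were listed at 0 in all 12 libraries. The other markers of these lists were not all at 0. Summed over its 5 markers, the T cell list ranged up to 0.126, the endothelial list from 3.33 to 10.3 with nearly all of it Pecam1, and the megakaryocyte and red cell list from 0.0953 to 1.27, with 2 of the 5 detected at each time. In the last list Gp1ba, a platelet receptor subunit, was higher after 48h (mean 0.0636 at 0h and 0.261 after 48h, log2 fold change 1.13, adjusted p = 0.0412 from limma, as below). That call was lost on the deposited TPM without scaling (0.81, adjusted p = 0.143 from limma) and held in 7 of 16 alternative fits. The neutrophil precursor list summed to at most 0.587 at 0h, between 7.435 and 10.55 at 12h and between 1.185 and 2.248 after 48h. Camp, a neutrophil granule gene, was at least 6.20 in each 12h library, as against at most 0.196 at 0h. It was also higher after 48h (log2 fold change 2.02, adjusted p = 0.00579 from limma). Prtn3 of the same list was higher at 12h and after 48h (2.94 and 2.13, adjusted p = 0.00581 and 0.0198 from limma). Its 48h call was lost on the deposited TPM (1.76, adjusted p = 0.0622 from limma). The part of these marker changes in the results below was not tested, and in bulk RNA fewer cells of a type and less RNA per cell cannot be told apart. A pair of genes at a ribosomal RNA locus took 70.3% to 82.9% of the TPM of each library, and unevenly over time. Levels are therefore given as scaled TPM, the deposited TPM divided by a size factor per library, and the same values without this scaling are named where they end or turn a call. The libraries numbered 3 stood somewhat apart, with the lowest such share at every time (70.3% to 76.9%) and deviations from their time means that correlated in all 6 pairs (r from 0.081 to 0.257). Fitted without these 4 libraries, which leaves 2 a time, 11 of the 25 changes called below for the 10 genes passed and 14 did not, all 14 with the same sign. Those that passed were Elf1 and Elk3 after 1h, Elf1, Elf4, Elk3 and Spib at 12h, Elf4, Spib and Erg after 48h, Spib from 1h to 12h and Elf1 from 12h to 48h. TPM keep no record of depth, so the depth of each library is unknown here.

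A change was called when limma, fitted to log2(scaled TPM + 0.1) of all 12 libraries, gave a Benjamini-Hochberg adjusted p under 0.05. All log2 fold changes and their standard errors (SE) below are on that scale, which understates the change of low genes, and all adjusted p are from limma. At 1h, 1 of the 10 was higher than at 0h (5.42% of all genes tested were) and 3 were lower (4.92%), so that 4 had changed, as against 10.3% of all genes. At 12h, 1 was higher (16.0%) and 4 lower (14.5%), 5 in all beside 30.4% of all genes. At 48h, 2 were higher (24.5%) and 4 lower (22.0%), so that 6 of 10 had changed, beside 46.5%. From 1h to 12h, 2 rose (11.3%) and 3 fell (8.77%), and from 12h to 48h, 3 rose (10.5%) and 2 fell (11.9%). Where a fold change over 2 was also required, the higher and lower members were 1 and 3 after 1h (4.08% and 2.83% of all genes), 0 and 4 at 12h (12.0% and 9.39%) and 0 and 3 after 48h (19.6% and 17.6%). From 1h to 12h they were then 0 and 2 (7.74% and 5.62%), and from 12h to 48h 1 and 2 (7.56% and 7.72%). Groups whose 3 libraries did not overlap numbered 3 higher and 3 lower of the 10 after 1h (16.3% and 16.2% of all genes), 1 and 4 at 12h (23.7% and 21.3%), 2 and 4 after 48h (27.2% and 23.9%), 4 and 4 from 1h to 12h (20.3% and 19.3%), and 3 and 2 from 12h to 48h (17.3% for each direction). The median log2 fold change of the 10 against 0h was 0.080 after 1h, -0.15 at 12h and -0.31 after 48h, beside 0.021, 0.069 and 0.072 over all genes. Ets2, Etv6 and Gabpa were called in none of the 5 comparisons on the scaled TPM. On the deposited TPM without scaling, the median over all genes was itself shifted, by 0.59 after 1h, 0.34 at 12h, -0.18 after 48h, -0.29 from 1h to 12h and -0.62 from 12h to 48h. The counts of members higher and lower then became 5 and 2 after 1h (24.1% and 1.41% of all genes), 2 and 4 at 12h (22.3% and 7.82%), and 0 and 5 after 48h (15.9% and 27.2%). From 1h to 12h they became 0 and 3 (6.98% and 15.0%), and from 12h to 48h 0 and 4 (4.10% and 31.7%).

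**Figure D1:**
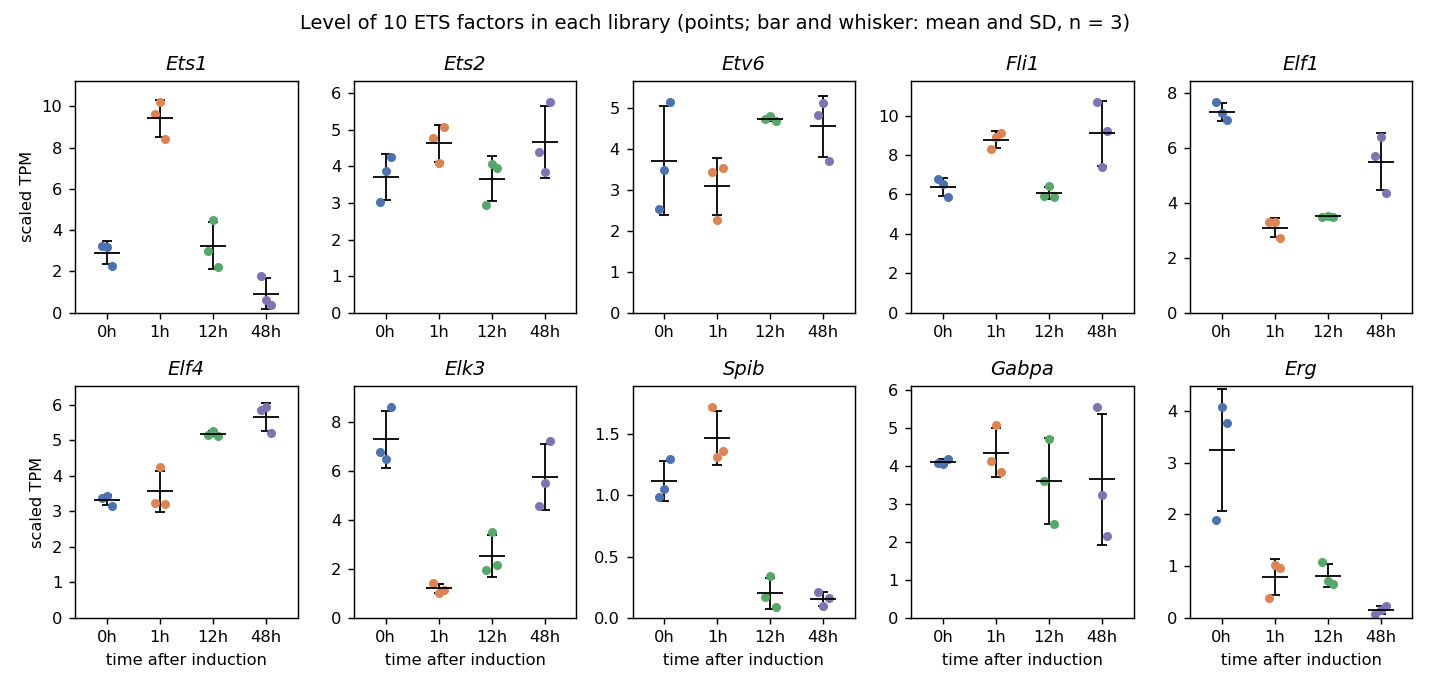
Level of each of the 10 ETS factors in scaled TPM (vertical axes, each from 0 and to its own maximum) at 0h, 1h, 12h and 48h. Points are the 3 libraries of a time, and the bar and whisker are their mean and SD. Ets1 stands highest after 1h (8.41 to 10.2) and lowest after 48h (0.386 to 1.79), while Elk3 and Elf1 are lowest after 1h.

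The sequences shown are the one fragment listed in contact with the Ets1 promoter fragment at all 4 times, and some of the promoters. These are the promoters of Elk3 and Erg, which were lower within 1h, and of Spib, which was lower from 12h. Elf1 was also lower within 1h, and its promoters are not shown. The Erg promoter shown is 1 of 3, the one in the captured PCHi-C fragment, which holds no principal start of Erg. Promoters (300 bases that span the start) are from RefSeq, in which 8 of the 10 members had an entry, and the fragment was read from the same build, GRCm38.p6. Both strands were searched for an ETS sequence, CCGGAA, and for a C/EBP sequence, TTGC followed by any 2 bases and AA, whose matches cannot overlap one of CCGGAA, and matches are in capitals. Of all 32851 promoters in the table, 14.9% held the first and 10.8% the second.
Ets1 contact, middle of the fragment, chr9:32938192-32938491, + strand: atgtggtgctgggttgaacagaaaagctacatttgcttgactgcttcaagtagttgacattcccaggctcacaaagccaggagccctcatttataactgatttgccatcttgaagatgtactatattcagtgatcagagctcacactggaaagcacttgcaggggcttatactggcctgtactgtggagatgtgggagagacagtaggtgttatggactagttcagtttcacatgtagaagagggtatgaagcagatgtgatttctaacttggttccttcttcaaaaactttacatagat
Elk3 promoter, chr10:93311110-93311409, - strand: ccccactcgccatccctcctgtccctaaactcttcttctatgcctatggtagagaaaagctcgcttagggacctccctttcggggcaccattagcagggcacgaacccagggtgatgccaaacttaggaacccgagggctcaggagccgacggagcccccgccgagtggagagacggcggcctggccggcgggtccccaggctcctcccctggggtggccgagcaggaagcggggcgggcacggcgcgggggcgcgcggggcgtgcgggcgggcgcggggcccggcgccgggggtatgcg
Erg promoter, chr16:95586544-95586843, - strand: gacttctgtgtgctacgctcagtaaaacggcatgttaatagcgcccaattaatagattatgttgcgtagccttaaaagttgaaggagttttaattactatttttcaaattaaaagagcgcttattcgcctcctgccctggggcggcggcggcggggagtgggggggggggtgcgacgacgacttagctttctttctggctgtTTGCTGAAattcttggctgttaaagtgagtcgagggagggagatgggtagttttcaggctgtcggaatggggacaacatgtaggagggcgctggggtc
Spib promoter, chr7:44532022-44532321, - strand: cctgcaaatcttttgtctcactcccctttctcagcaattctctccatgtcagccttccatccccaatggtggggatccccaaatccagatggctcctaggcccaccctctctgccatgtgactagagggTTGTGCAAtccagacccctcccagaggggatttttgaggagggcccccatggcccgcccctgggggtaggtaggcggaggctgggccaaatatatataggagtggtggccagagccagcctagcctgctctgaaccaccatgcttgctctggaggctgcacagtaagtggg
The Spib promoter and 2 of the 3 Erg promoters held 1 C/EBP sequence each, and the Gabpa promoter held 1 ETS sequence. The promoters of Ets2, Etv6, Elf1, Elf4 and Elk3 held neither. Of the middle 300 bases of 70313 contacted fragments, 3.15% held the ETS and 11.8% the C/EBP sequence, and the Ets1 contact held neither in its whole 799 bases. Each match is a description of letters and not a bound site.

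Ets1 (chromosome 9, 32636221 to 32757820, GRCm38) encodes the founding member of the family, which is abundant in lymphocytes and binds DNA together with partners such as RUNX1 and PAX5. Its scaled TPM was 3.24, 3.19 and 2.27 at 0h, 9.63, 10.2 and 8.41 after 1h, 3.00, 4.49 and 2.23 at 12h, and 1.79, 0.599 and 0.386 after 48h. All 1h libraries lay above every library of the other times, the 12h libraries overlapped those of 0h, and the 48h libraries lay below all others. The mean was 2.90 ± 0.545 (SD, n = 3) at 0h and 9.41 ± 0.914 after 1h, a log2 fold change of 1.68 (SE 0.42, adjusted p = 0.0296). It then fell by 1.56 from 1h to 12h (SE 0.42, adjusted p = 0.0239) and by 1.90 from 12h to 48h (SE 0.42, adjusted p = 0.00778). At 48h it was lower than at 0h by 1.78 (adjusted p = 0.00493). Ets1 made up 6.79% ± 1.60 (SD, n = 3) of the summed level of the 10 genes at 0h, 23.3% ± 1.72 after 1h, 9.50% ± 2.31 at 12h and 2.22% ± 1.64 after 48h. The 1h rise was lost as a call without any one of the 6 libraries compared (adjusted p from 0.0612 to 0.103, with log2 fold changes from 1.52 to 1.76), and was 2.33 (adjusted p = 0.00192) on the deposited TPM. The fall to 12h was lost without each of the 1h libraries or without 12h replicate 1 or 3 (adjusted p from 0.0598 to 0.0956).

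Of 8326 other genes averaging 1 TPM or more, the 5 whose levels over the 12 libraries were most like those of Ets1 were Med4, Fanca, Neil3, Arhgap33 and Dna2 (Pearson r from 0.922 to 0.952 on the log scale, given as a description, since the libraries share 4 time points). The mean scaled TPM of Neil3 was 1.38, 2.67, 0.843 and 0.149 over the 4 times, and that of Fanca 5.58, 8.37, 4.28 and 2.35.

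Ets2 (chromosome 16, 95702075 to 95721051), the closest relative of Ets1 and a factor that MAP kinases phosphorylate, was called in no comparison on the scaled TPM. It was between 3.03 and 4.26 at 0h, between 4.08 and 5.07 after 1h, between 2.95 and 4.08 at 12h and between 3.83 and 5.76 after 48h. The 0h libraries overlapped those of each later time, and the log2 fold changes against 0h were 0.32, -0.021 and 0.31 (adjusted p = 0.365, 0.966 and 0.234). Its 1h change was 0.97 and passed on the deposited TPM (adjusted p = 0.0124). The gene most like Ets2 was Atf5 (r = 0.840), followed by Arid5a, Fbxw5, Agap3 and Ikbkg (r from 0.770 to 0.819).

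Elk3 (chromosome 10, 93247414 to 93311135) encodes Net, a partner of SRF that represses its targets until MAP kinases modify it. Its scaled TPM was 6.77, 6.51 and 8.62 at 0h, 1.42, 1.03 and 1.15 after 1h, 1.95, 3.50 and 2.14 at 12h, and 4.56, 5.52 and 7.24 after 48h. The 1h libraries were the lowest and did not overlap those of any other time, and the 48h libraries overlapped those of 0h. The mean after 1h was 6.07 times below that at 0h, a log2 fold change of -2.51 (SE 0.25, adjusted p = 0.000101), and at 12h the change against 0h was -1.53 (adjusted p = 0.000815). Elk3 rose by 0.98 from 1h to 12h (adjusted p = 0.0163) and by 1.18 from 12h to 48h (adjusted p = 0.00536), and its 48h value against 0h was -0.35 (adjusted p = 0.281). Both rises lost their call on the deposited TPM (0.68 and 0.45, adjusted p = 0.105 and 0.241), and the first also without 1h replicate 2 or 3 or 12h replicate 2 (adjusted p = 0.064, 0.0533 and 0.0593). On the deposited TPM Elk3 was lower after 48h than at 0h (-0.75, adjusted p = 0.0477). Of its exonic bases 6.95% are shared with Cdk17, whose reads in that stretch cannot be told apart because the library kit did not mark strand.

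Elf1 (chromosome 14, 79481194 to 79582494), an activator expressed throughout blood cells, also dropped within 1h. It was 7.68, 7.28 and 7.04 at 0h, 3.29, 3.30 and 2.72 after 1h, 3.51, 3.54 and 3.50 at 12h, and 5.72, 6.41 and 4.36 after 48h. The libraries of 1h, 12h and 48h all lay below those of 0h, and the 48h libraries above those of 1h and 12h. The log2 fold change against 0h was -1.22 after 1h (SE 0.16, adjusted p = 0.000615), -1.04 at 12h (adjusted p = 0.000511) and -0.43 after 48h (adjusted p = 0.0446). The 48h value is at the threshold and was lost without 5 of the 6 libraries compared, all but 48h replicate 2 (adjusted p from 0.0592 to 0.120). It was also lost under quantile normalization (0.0528), rescaling without the 20 most abundant genes (0.151), no filter (0.0524), no trend (0.0727) and the 6 libraries alone (0.0945), and held in 6 of 17 alternatives. Elf1 rose by 0.61 from 12h to 48h (adjusted p = 0.0161), which became -0.12 on the deposited TPM and lost its call without 48h replicate 2 (adjusted p = 0.0551). The 1h fall was -0.57 on the deposited TPM (adjusted p = 0.0628). Elf1 shares 4.85% of its exonic bases with Wbp4 on the other strand.

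Elf4 (chromosome X, 48411046 to 48463132), known as MEF, is a related activator with roles in cell cycle exit and innate immune genes. It was 3.38, 3.42 and 3.14 at 0h, 3.24, 4.23 and 3.20 after 1h, 5.16, 5.26 and 5.13 at 12h, and 5.83, 5.93 and 5.20 after 48h. Every library of 12h and 48h lay above every library of 0h and 1h. The log2 fold change was 0.63 at 12h (SE 0.14, adjusted p = 0.0058) and 0.75 after 48h (adjusted p = 0.00104), and from 1h to 12h it was 0.54 (adjusted p = 0.0186). On the deposited TPM the 48h value was 0.35 (adjusted p = 0.179) and that from 1h to 12h 0.23 (adjusted p = 0.444), the latter also lost without 1h replicate 1 or 3 (adjusted p = 0.0611 and 0.0523). The 48h value stood at 0.12 against 12h (adjusted p = 0.603), but on the deposited TPM Elf4 fell by 0.61 between these times (adjusted p = 0.0288) and was higher after 1h than at 0h (0.73, adjusted p = 0.0189). Elf1 and Elf4 changed order. Elf1 was above Elf4 in all 0h libraries, Elf4 was above Elf1 in all 12h libraries, and the libraries overlapped after 48h.

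Fli1 (chromosome 9, 32422204 to 32542861) and Erg (chromosome 16, 95359169 to 95586593) are close relatives with known roles in blood stem cells, megakaryocytes and endothelium, and each lies near another member on its chromosome, Fli1 near Ets1 and Erg near Ets2. Fli1 was 6.77, 6.53 and 5.89 at 0h, 8.30, 8.90 and 9.14 after 1h, 5.93, 6.42 and 5.87 at 12h, and 10.7, 7.42 and 9.22 after 48h. Libraries of 1h and 48h lay above all those of 0h and 12h. The 1h difference of 0.45 did not pass (adjusted p = 0.0731), while the fall from 1h to 12h of 0.52 (adjusted p = 0.0248), the rise from 12h to 48h of 0.56 (adjusted p = 0.0162) and the 48h change against 0h of 0.49 (adjusted p = 0.0157) did. On the deposited TPM the 1h change was 1.11 (adjusted p = 0.00151), the 48h change 0.083 (adjusted p = 0.751) and that from 12h to 48h -0.18 (adjusted p = 0.475). Without 48h replicate 1, the highest library, the 48h change was 0.37 (adjusted p = 0.0557) and that from 12h 0.44 (adjusted p = 0.0529), and the fall to 12h was lost without 1h replicate 2 or 3 or 12h replicate 1 or 3 (adjusted p from 0.0641 to 0.0674).

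Erg was lower after 1h and 12h and lower still after 48h. It was 1.90, 4.07 and 3.78 at 0h, 0.385, 1.01 and 0.965 after 1h, 1.08, 0.719 and 0.658 at 12h, and 0.0638, 0.153 and 0.226 after 48h. The libraries of 1h and 12h overlapped, all lay below those of 0h, and those of 48h lay below all others. The log2 fold change against 0h was -1.94 after 1h (SE 0.42, adjusted p = 0.013), -1.82 at 12h (adjusted p = 0.00656) and -3.74 after 48h (adjusted p = 2.19e-05), where the mean was 22.0 times below that at 0h. From 12h to 48h it fell by 1.92 (adjusted p = 0.00646). The 1h call was lost without 0h replicate 2 or 3 or 1h replicate 1 (adjusted p = 0.0578, 0.0556 and 0.0528). Of the marker lists for the other cells that make Erg, Kdr and Tie1 of endothelium and Gata1 and Pf4 of megakaryocytes were at 0 throughout. Gp1ba of megakaryocytes was called higher after 48h, but not on the deposited TPM, as given above. Itga2b of megakaryocytes was at most 0.0869 at 0h, ranged from 0 to 1.22 at 12h and was called in no comparison. Cdh5 of endothelium, too low to be tested, was at most 0.0652 at 0h and 0.765, 0.0279 and 0.399 after 48h. Esam of endothelium was at most 0.076 at 0h and at 0 after 48h. Pecam1, also found on other blood cells, ran from 5.50 to 6.13 at 0h and from 8.48 to 9.87 after 48h. The part of these markers in the Erg values was not tested.

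Spib (chromosome 7, 44525993 to 44532071), the closest relative of PU.1 and a factor of lymphoid cells, was the lowest of the 10 at 0h. It was 0.989, 1.05 and 1.30 at 0h and 1.72, 1.31 and 1.37 after 1h, then 0.169, 0.341 and 0.0887 at 12h and 0.207, 0.0976 and 0.160 after 48h. The libraries of 12h and 48h overlapped and lay below all earlier ones. Against 0h the log2 fold change was -2.10 at 12h (SE 0.33, adjusted p = 0.000636) and -2.27 after 48h (adjusted p = 0.000165). The 1h libraries lay above those of 0h, but the difference of 0.37 did not pass (adjusted p = 0.538). On the deposited TPM it was 0.99 (adjusted p = 0.0414).

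Gabpa (chromosome 16, 84834925 to 84863779) encodes the DNA-binding subunit of GABP, which needs a GABPB subunit and acts at many promoters of ribosomal and mitochondrial genes. It ran from 4.05 to 4.19 at 0h, from 3.85 to 5.08 after 1h, from 2.46 to 4.72 at 12h, and spread most, from 2.16 to 5.55, after 48h. The libraries overlapped in every comparison, and the log2 fold changes against 0h were 0.072, -0.23 and -0.27 (adjusted p = 0.931, 0.617 and 0.516). Its spread widened from an SD of 0.0749 at 0h to 1.73 after 48h, and 6.98% of its exonic bases are shared with Atp5j, whose highest level was 26.2 TPM. Etv6 (chromosome 6, 134035700 to 134270158), a repressor needed by blood stem cells, ran from 2.52 to 5.13 at 0h, from 2.27 to 3.54 after 1h, from 4.68 to 4.79 at 12h, with 48h libraries between 3.69 and 5.10. Its change from 1h to 12h, 0.63 with no overlap between libraries, did not pass (adjusted p = 0.113). Without scaling, Etv6 was higher at 12h than at 0h (0.73, adjusted p = 0.0328) and fell by 0.80 from 12h to 48h (adjusted p = 0.0178).

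**Figure D2:**
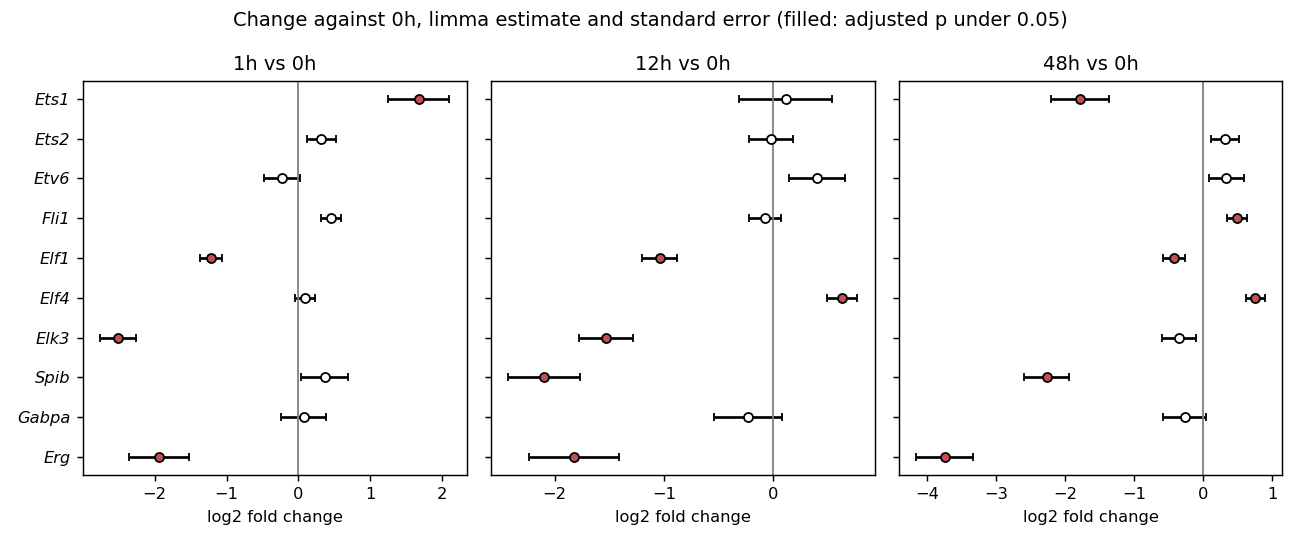
Log2 fold change of each ETS factor against 0h (horizontal axes, 1 panel per later time, each with its own range) with its standard error as whiskers, from limma over all 12 libraries. Filled points passed an adjusted p of 0.05. Ets1 lies to the right after 1h (1.68) and to the left after 48h (-1.78), Erg reaches -3.74 after 48h, and Ets2, Etv6 and Gabpa are open in every panel.

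Because TPM are per length, levels can be set side by side between the genes. At 0h Elf1, Elk3 and Fli1 led, with means of 7.33, 7.30 and 6.40 and each overlapping the next. They were followed by Gabpa, Ets2, Etv6, Elf4, Erg and Ets1, between 4.11 and 2.90 and each overlapping the next, and by Spib alone at 1.11. At 1h Ets1 (9.41) and Fli1 (8.78) overlapped each other and stood above the other 8. At 12h Fli1 (6.07), Elf4 (5.18) and Etv6 (4.73) led without overlap between neighbours, although the highest Gabpa library (4.717) lay above the lowest Etv6 library (4.677). At 48h Fli1 (9.11) stood above all others, of which Elk3, Elf4, Elf1, Ets2, Etv6 and Gabpa (5.77 to 3.65) each overlapped the next, and Ets1, Spib and Erg were last (0.923, 0.155 and 0.148). The summed level of the 10 was 43.1 ± 2.66 (SD, n = 3) at 0h, 40.4 ± 1.01 after 1h, 33.6 ± 3.79 at 12h and 40.1 ± 3.06 after 48h.

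Of a list of 27 ETS family genes that includes the 10, 21 could be tested. At 1h 2 were higher and 4 lower than at 0h (5.42% and 4.92% of all genes were), at 12h 4 and 5 (16.0% and 14.5%), and after 48h 6 and 6 (24.5% and 22.0%). Without scaling the counts were 10 and 3, then 5 and 4, then 3 and 7. Spi1 was 8.63, 8.01 and 8.51 at 0h, 19.6, 15.7 and 23.8 after 1h, 30.6, 31.1 and 30.7 at 12h and between 37.6 and 45.1 after 48h. Its libraries lay above those of all 10 genes after 1h, 12h and 48h, while at 0h the highest Elk3 library, at 8.62, lay within the Spi1 range. Its log2 fold changes against 0h were 1.20, 1.87 and 2.26 (adjusted p = 0.00042, 4.49e-06 and 3.27e-07). Etv4 and Etv5, which belong to the PEA3 group induced by growth factor signalling, were lower after 48h, Etv4 with a log2 fold change of -3.21 (adjusted p = 8.35e-07; 6.51 to 7.73 at 0h and 0.478 to 1.05 after 48h) and Etv5 with one of -0.63 (adjusted p = 0.00737). Etv5 was lowest after 1h (3.18 to 4.36, against 9.78 to 12.7 at 0h; log2 fold change -1.47, adjusted p = 0.000215). Etv1, the third of that group, rose instead, from between 0.446 and 0.576 at 0h to between 1.98 and 2.55 after 48h (1.94, adjusted p = 9.66e-05). Etv3, a repressor, was higher after 48h by 0.80 (adjusted p = 0.00167; 0.40, adjusted p = 0.17, on the deposited TPM). Elk4, a relative of Elk3, and Elf2, a relative of Elf1, rose from 12h to 48h by 0.54 and 0.56 (adjusted p = 0.00908 and 0.0319), and both changes were below 0 on the deposited TPM (-0.20 and -0.17). Elf2 had fallen from 1h to 12h by 0.83 (adjusted p = 0.00433).

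**Figure D3:**
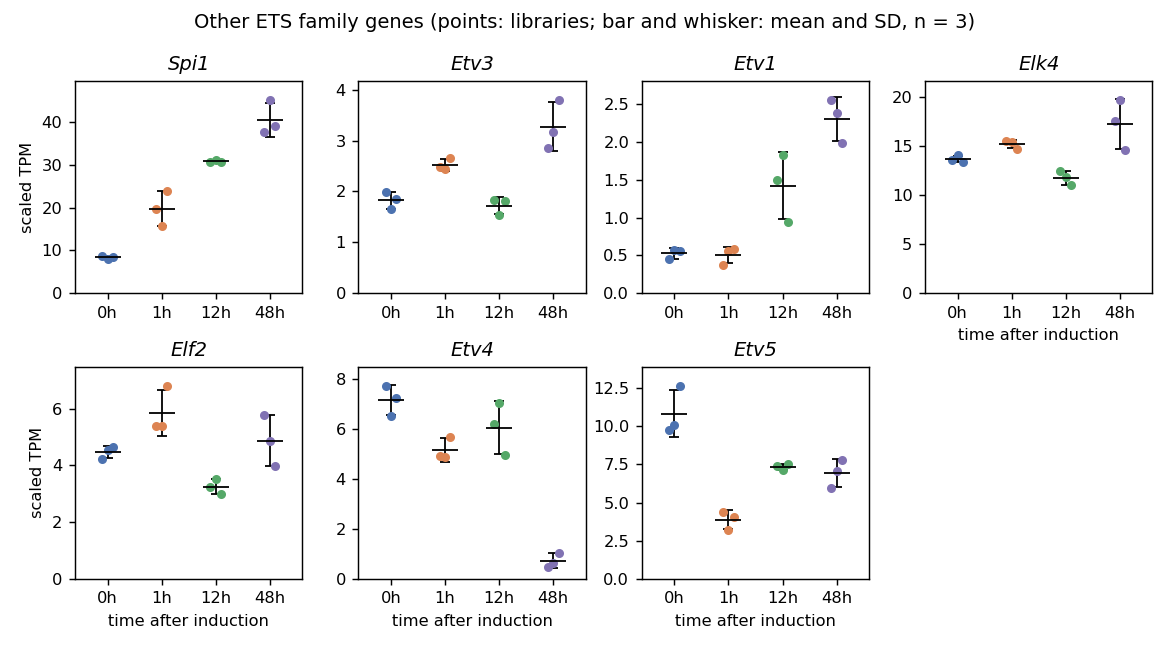
Level of 7 other ETS family genes in scaled TPM (vertical axes from 0, each to its own maximum) by time after induction, with points for the 3 libraries and bar and whisker for mean and SD. Spi1 goes from 8.01 to 8.63 at 0h to between 37.6 and 45.1 after 48h, and Etv4 from 6.51 to 7.73 at 0h to between 0.478 and 1.05 after 48h.

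Partners and regulators of ETS factors were a list of 12, all tested. At 1h 1 was higher and 3 lower (5.42% and 4.92% of all genes), at 12h 3 and 4 (16.0% and 14.5%), and after 48h 3 and 5 (24.5% and 22.0%). Without scaling these were 3 and 2, then 3 and 1, then 3 and 6. Daxx, whose product binds and represses Ets1 protein, went from 1.79, 2.77 and 3.50 at 0h to 43.4, 40.9 and 45.3 after 48h (log2 fold change 4.01, adjusted p = 1.39e-07). Runx1, the partner of Ets1 on DNA, rose from between 6.45 and 8.45 at 0h to between 15.9 and 19.8 after 1h (1.25, adjusted p = 0.000796) and stayed higher after 48h (1.61, adjusted p = 1.26e-05). Pax5, which recruits Ets1 to the Cd79a promoter, was lower after 1h (-1.46, adjusted p = 9.31e-05) and lowest at 12h (2.34 to 2.87, against 16.5 to 20.1 at 0h). Mapk3, which encodes the ERK1 kinase, was lower after 1h (-0.76, adjusted p = 0.0352; -0.11, adjusted p = 0.747, on the deposited TPM) and higher after 48h (1.22, adjusted p = 0.000436). Srf, the partner of Elk3, and Gabpb2, a GABPB subunit, were lower after 48h (log2 fold changes -0.90 and -0.84, adjusted p = 0.0257 and 0.00493), although the Srf libraries of 48h (2.50 to 5.65) overlapped those of 0h (5.20 to 7.35).

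Of 14 genes with textbook regulation by ETS factors, including PU.1, 8 could be tested. At 1h 0 were higher and 2 lower than at 0h (5.42% and 4.92% of all genes), at 12h 1 and 2 (16.0% and 14.5%), and after 48h 3 and 2 (24.5% and 22.0%), with the same counts on the deposited TPM. Csf1r, the CSF-1 receptor, was between 0.136 and 0.467 at 0h and between 23.3 and 30.5 after 48h (log2 fold change 6.12, adjusted p = 2.71e-07). Il7r, the receptor of the Pre-B growth factor IL-7, was 7.89, 7.95 and 8.34 at 0h and 0.854, 0.955 and 0.279 after 1h (-3.49, adjusted p = 0.000104), was listed at 0 in 2 of the 12h libraries, and stood at 0.934 to 1.24 after 48h. Cd79a, a part of the B cell receptor, fell by 2.22 after 48h (adjusted p = 1.46e-06). Bcl2l1, a survival gene, was lower after 1h only among the 3 comparisons with 0h (-1.68, adjusted p = 0.000773), at 3.14 as against 10.4 scaled TPM. Also higher after 48h were Mmp9, a matrix protease (at 0 in the 0h libraries and 0.191, 1.42 and 0.545 after 48h, adjusted p = 0.00123), and Prdm1, a repressor needed by plasma cells (0.590, 0.376 and 0.186 after 48h against at most 0.0834 at 0h, adjusted p = 0.00471), low genes named after their values were seen. Csf1r is also among the macrophage markers and Cd79a among the Pre-B markers.

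In PCHi-C, promoter-bearing HindIII fragments are captured with probes and the fragments ligated to them are listed as contacts. The one promoter fragment of the 4 lists that holds an annotated Ets1 start was chr9:32634806-32636513, of 1708 bases. The transcripts that start there are 2 with retained introns. The 4 protein-coding starts lie about 64.5 kb further on, in the fragment chr9:32695656-32704723. The 4 lists hold that fragment neither as a promoter fragment nor as a contact. A captured fragment with no called contact would not be listed, so whether it was captured is unknown here. The 0h list gives a CHiCAGO score of at least 5 for each contact. The lists of 1h, 12h and 48h give whole numbers with no unit named, taken here as read pairs since their medians fall with distance (for 1h, from 62 in the nearest class of distances to 12 in the farthest on the same chromosome). Scores and whole numbers are not compared with each other. With 1 merged list per time there is no replicate error, and none of these counts was tested.

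The Ets1 fragment had 18 listed contacts at 0h, 5 after 1h, 5 at 12h and 15 after 48h. Over promoter fragments with any contact the median was 6 at each time, and 84.1%, 51.4%, 50.4% and 80.1% of all promoter fragments had fewer contacts than Ets1 at the 4 times. Of the 18 contacts at 0h, 5 lay upstream, 8 inside Ets1 and 5 beyond its 3′ end. At 1h 1 lay inside the gene and 4 beyond it, at 12h all 5 lay beyond it, and after 48h there were 1 upstream, 4 inside and 10 beyond. In kb, contacts lay at medians of 89.6, 298, 303 and 242 in the order of the times. None of the 0h contacts reached a score of 10, the range being 5.01 to 7.82.

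Of the 18 contacts at 0h, 3 were also listed after 1h (16.7%, or 60.0% of those of 1h), 2 at 12h (11.1%, or 40.0%) and 5 after 48h (27.8%, or 33.3%). Over all promoter fragments, 58.9%, 54.3% and 56.1% of 0h contacts were listed again at those times. These shares pool contacts of every score, whereas the Ets1 contacts at 0h all scored between 5.01 and 7.82. The share for contacts of like score was not computed. Counting fragments within 10 kb as shared, the numbers for Ets1 were 7, 4 and 14. That looser count was not made over all promoter fragments, so the shares above are no measure for it. The contact listed at all 4 times was chr9:32937943-32938741, whose middle is printed above, in intergenic sequence 303 kb downstream of the captured fragment. It had the highest score of the 0h list for Ets1, 7.82, and whole numbers of 13, 12 and 12 at the later times. Both its neighbours were listed at 3 times, chr9:32929388-32937942 at 0h, 1h and 48h and chr9:32938742-32945256 at 0h, 1h and 12h. Fragments within the lincRNA gene Gm27162, between 269 and 292 kb away, were listed at every time. Close to the start, 4 fragments in the lincRNA gene Gm47680, 11.8 to 17.3 kb upstream, were listed at 0h and 1 of them again after 48h, with the highest whole number, 105. Only the 48h list held chr9:32693254-32695655, the fragment just before that of the protein-coding starts, with a value of 35. Over the same times the Ets1 level had its highest mean after 1h and its lowest after 48h.

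**Figure D4:**
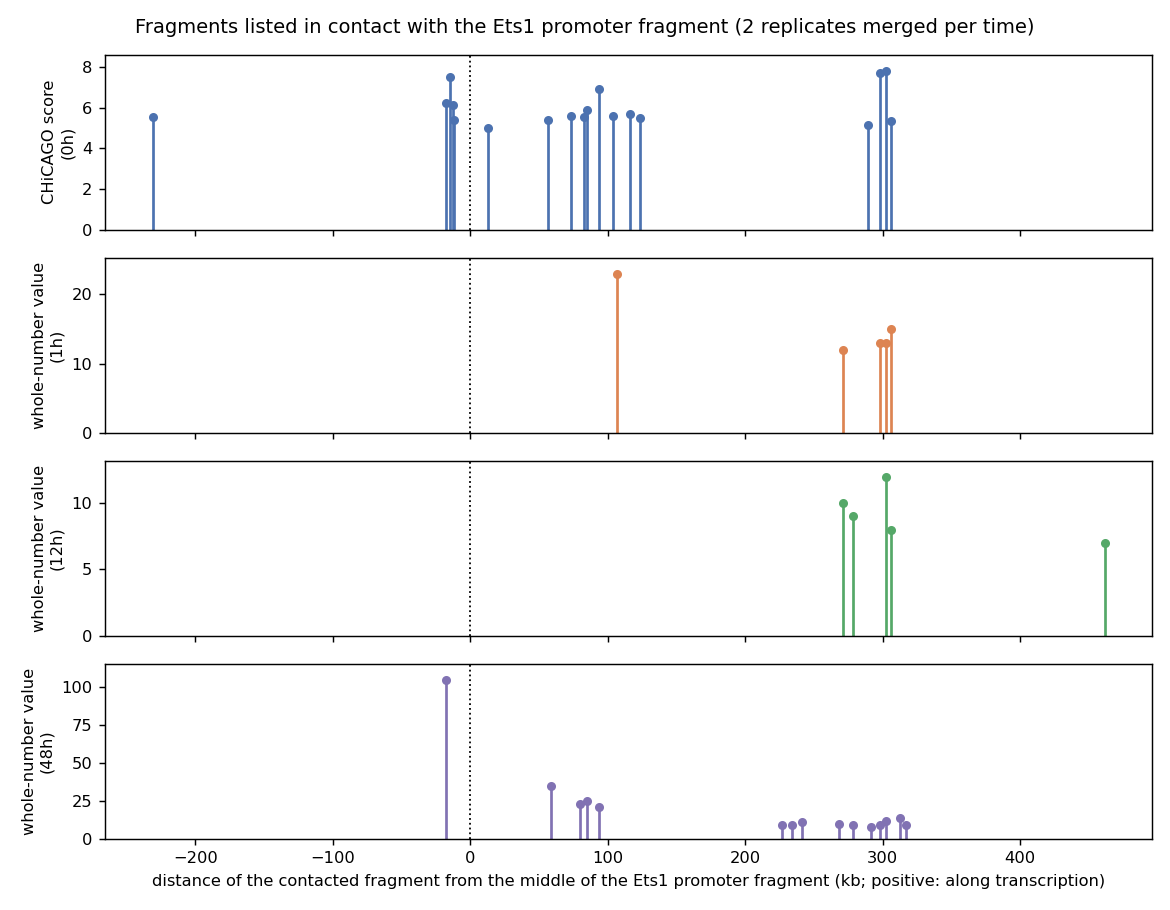
Fragments listed in contact with the Ets1 promoter fragment, by distance from its middle (kb, horizontal axis, positive along the direction of transcription), with 1 panel per time. The vertical axis is the CHiCAGO score at 0h and a whole number of unnamed unit at the later times, so heights are not comparable between the first panel and the others. Contacts about 303 kb downstream appear in all panels, and those inside the gene are 8, 1, 0 and 4 over time.

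In the lists, the other 9 genes had 10 captured fragments that hold a start, 1 each and 2 for Etv6. Each member's count of contacts at 0h, 1h, 12h and 48h is given in that order. Elk3, whose fragment also holds the start of Gm32688, had 25, 28, 24 and 31 contacts, of which 17 were in all 4 lists, and the highest 0h score among the 10 genes, 30.7. Ets2 had 25, 19, 22 and 23, with 14 in all lists, and Elf1, whose fragment also holds the start of Wbp4, had 20, 30, 30 and 20, with 13 in all lists. Fli1 had 11, 7, 16 and 26, and the fragment with the main Etv6 start had 10, 10, 21 and 22. The second Etv6 fragment, inside the gene, had 6, 10, 26 and 41. It also holds the starts of 1700051K13Rik and Gm17089, and the only Etv6 transcript that starts there is a processed transcript, Etv6-203. Gabpa, whose fragment also holds the start of Atp5j, had 7, 4, 4 and 23, and Spib, whose fragment also holds that of Pold1, had 12, 7, 2 and 3. Elf4 had 4, 7, 1 and 3. Erg, whose captured fragment holds the start of the transcript Erg-206 and not a principal start, had 6, 3, 7 and 9. Between Ets1 and Fli1, or between Erg and Ets2, no contact of the captured fragments was listed at any time, nor between any other pair of the 10 genes. Elk3, whose level was lowest after 1h, had a similar number of contacts at 0h and 1h, with 20 of its 25 shared, whereas Spib, whose level was lower at 12h and 48h, had fewer listed contacts at both. Erg, whose level fell most after 48h, had 9 contacts then and 6 at 0h. Gabpa and Etv6, whose levels were called in no comparison, had more contacts after 48h than at 0h. Ets2, also called in none, had fewer, 23 after 48h and 25 at 0h. The relation of contacts to level was not tested.

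**Figure D5:**
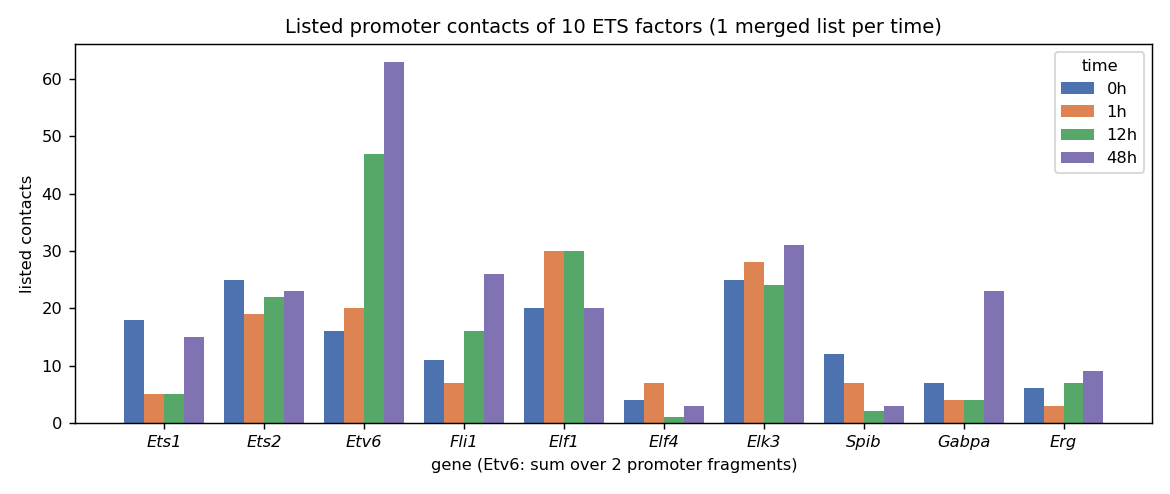
Number of listed contacts of the captured promoter fragments of each ETS factor (vertical axis, from 0) at 0h, 1h, 12h and 48h, 1 merged list per time and no error bars. Etv6 is the sum over its 2 fragments, the second of which also holds the starts of 1700051K13Rik and Gm17089. Ets1 drops from 18 to 5 after 1h and is back at 15 after 48h, and Spib goes from 12 to 2 and 3 at the late times.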

How the data were processed

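RNA-seq of 12 libraries and PCHi-C of 4 times were used; Hi-C was not. Per the labels and methods, the authors depleted rRNA, used a library kit that does not mark strand, trimmed reads with Trim Galore 0.6.2, mapped them to mm10 (GRCm38) with HISAT2 2.1.0 and deposited TPM from RSEM. All gene IDs matched GENCODE M21. For PCHi-C the authors merged 2 replicates and called contacts with CHiCAGO (score of at least 5). The deposited 0h list holds this score and the deposited later lists hold whole-number counts of unnamed unit.

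TPM were divided by median-of-ratios size factors from 11246 genes (time means 0.930, 1.47, 1.18 and 0.699). Genes averaging 0.1 TPM or more, 16415 in number, entered limma 3.58.1 (R 4.3.3, eBayes with trend) on log2(scaled TPM + 0.1), all 12 libraries in 1 model, 5 comparisons, Benjamini-Hochberg adjustment over all genes. The method was tested on simulated data in which few genes changed, up and down in equal number. That setting does not test the scaling where many genes change. The authors used DESeq2, on counts not used here. Contacts were counted with Python 3.11.15, and no test was run on them.

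The members and gene lists were chosen with earlier results of these data known. Named are the members, ETS family genes called in any comparison averaging 1 TPM or more, up to 6 genes of each other list called against 0h and averaging 1 TPM or more, by size of the 48h change, marker genes, and the 5 genes most like Ets1 and Ets2. Alternatives varied scaling, pseudocount, filter, trend, libraries, replicate block, call rule, score and overlap; a fit of replicates 1 and 2 alone was added after seeing the data.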

Additional observations from a re-analysis of the deposited data

How the results depend on the processing

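Of 25 called values of the 10 genes, 8 kept their call in every alternative run and 15 in every fit without 1 library. On the deposited TPM the count of members higher was 5 at 1h, 2 at 12h, 0 at 48h, 0 from 1h to 12h and 0 from 12h to 48h, and 4 were lower from 12h to 48h. Rescaled without the 20 most abundant genes, 1 was higher at 48h, 1 from 1h to 12h and 1 from 12h to 48h. With the 6 libraries compared alone, 2 were higher at 1h, 1 higher and 2 lower at 48h, 1 higher from 1h to 12h, and 0 higher and 1 lower from 12h to 48h. The Ets1 values at 48h (adjusted p = 0.0534) and from 12h to 48h (0.0941) then lost their call. Quantile normalization gave 2 higher at 1h, a pseudocount of 1 gave 1 lower from 12h to 48h (Erg at -0.66), and a required fold change of 2 gave 0 higher at 12h, 48h and from 1h to 12h, and 1 from 12h to 48h. Leaving out 1 library gave 0 higher at 1h, 1 to 2 higher at 48h, and 0 to 2 higher and 1 to 3 lower from 1h to 12h.

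Signs turned on the deposited TPM for Etv6 at 1h (0.42), Ets2, Fli1 and Gabpa at 12h (0.31, 0.26 and 0.094), Ets2 and Etv6 at 48h (-0.088 and -0.071), Elf1 and Erg from 1h to 12h (-0.14 and -0.17), and Ets2, Fli1, Elf1 and Elf4 from 12h to 48h (-0.40, -0.18, -0.12 and -0.61). They turned under quantile normalization for Ets2 at 12h (0.013), and under rescaling for Ets2 and Fli1 at 12h (0.097 and 0.046) and Elf4 from 12h to 48h (-0.069). Without 1 library, values that had not been called changed sign, with ranges from -0.47 to 0.029 for Etv6, -0.040 to 0.16 for Elf4 and -0.041 to 0.15 for Gabpa at 1h. At 12h they were -0.14 to 0.35 for Ets1, -0.16 to 0.12 for Ets2 and -0.45 to 0.0075 for Gabpa, and at 48h -0.62 to 0.045 for Gabpa. From 1h to 12h the range for Erg was -0.27 to 0.33, and from 12h to 48h it was -0.16 to 0.068 for Etv6, -0.46 to 0.15 for Spib and -0.38 to 0.28 for Gabpa. With replicates 1 and 2 alone, a fit chosen after seeing the data and of fewer libraries, the 1h count of higher members was 0, that of 48h was 1 with 2 lower, that from 1h to 12h was 0 with 1 lower, and that from 12h to 48h was 1 with 0 lower. Uncalled values that turned were Ets2 and Gabpa at 12h (0.020 and 0.022), Gabpa at 48h (0.060), and Etv6 and Gabpa from 12h to 48h (0.060 and 0.038). Beyond the scaling itself, the cause was not tested.

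Replicate numbers were not taken to pair the libraries, since not every same-numbered pair correlated above 0.1. Of 18 pairs 7 did (from -0.011 to 0.26 over all), 5 of them among the 6 of number 3, and 7 of 12 libraries correlated best with their own number. With the replicate block 1 member was higher and 3 lower at 1h, 1 and 4 at 12h, 2 and 4 at 48h, 2 and 3 from 1h to 12h, and 3 and 2 from 12h to 48h, as without it. At a score of at least 10 the Ets1 fragment had 0 contacts at 0h, and counting fragments within 10 kb as shared gave 7, 4 and 14. A promoter fragment at the protein-coding Ets1 starts gave no value, since none was in the lists. The depth behind the TPM is unknown, and contacts have 1 merged list per time.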
